A study of Caenorhabditis elegans with 60 samples.

Results

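The 2 ferritin genes of the worm Caenorhabditis elegans, ftn-1 and ftn-2, are described here over 14 concentrations of hexafluoropropylene oxide dimer acid (HFPO-DA) and a control. They were chosen by identifier as genes of iron storage and uptake. Of 3 identifiers in the rule, 2 were measured among the 10298 genes of the deposited table: CELE_C54F6.14 (ftn-1) and CELE_D1037.3 (ftn-2). The uptake transporter smf-3 (CELE_Y69A2AR.4) was not analysed here. HFPO-DA is a perfluorinated ether acid of the PFAS group. All groups were wild-type N2 (Bristol) worms, exposed for 48 h from the synchronised first larval stage in liquid S Medium with E. coli HB101 as food. The control received the same medium without HFPO-DA, and the exposed groups 12.5, 62.5 or 313 µg/L, or 1.56, 7.81, 15.6, 31.3, 62.5, 125, 250, 500, 1000, 2000 or 4000 mg/L. Each of the 60 libraries, 4 in each of the 15 groups, was poly(A) RNA from whole bodies of about 1000 worms pooled from 1 well. The labels do not say that the 4 wells of a group came from separate worm cultures, so the spread and the p-values describe wells.

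Ferritin is a hollow protein shell that takes up ferrous iron, oxidises it and stores it as a mineral, which keeps free iron from driving the formation of reactive oxygen species. Both worm proteins resemble the heavy chain of mammalian ferritin. In C. elegans, ftn-1 is expressed mainly in the intestine and ftn-2 in many tissues. Unlike in mammals, where ferritin messenger RNA is controlled in translation, worm ferritin genes are controlled by iron in transcription: intestinal GATA factors drive ftn-1, HIF-1 (the hypoxia-inducible factor) represses it when iron is scarce, and the FOXO factor DAF-16 can raise it.

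In the WBcel235 build, ftn-1 lies on the minus strand of chromosome V at 7546468 to 7547579 and ftn-2 on the minus strand of chromosome I at 3680180 to 3680927. Each has 3 exons, 1 annotated transcript and 0 overlapping genes. Exons sum to 606 bases in ftn-1 and 651 in ftn-2. The coding parts of the 3 exons have equal lengths in both genes, at 57, 354 and 99 bases, which with the stop codon make 513 bases of coding sequence in each. They differ in the introns, which are 460 and 46 bases in ftn-1 and 48 and 49 in ftn-2, and in the untranslated ends. The 5′ untranslated region measures 16 bases in ftn-1 and 28 in ftn-2, and the 3′ region 77 and 110. Reads that match both paralogues could have been split between them; their treatment is not stated in the labels.

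The deposited values are a normalised signal on a linear scale, from which whole reads could be recovered. Per library the listed genes held 462117 to 4522107 reads, with a median of 1475652.5. The control libraries held 999346 to 1914706 and the 4000 mg/L libraries 737039 to 1249951. At 4000 mg/L, limma called 28.5% of 10293 genes tested (1518 higher and 1414 lower) at an adjusted p under 0.05, which is the background for every count below.

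The intestinal ferritin gene ftn-1 fell at the highest concentration, and at 0 of the 13 others did it pass the test. The normalised signal of ftn-1 was 74.2, 65.8, 88.5 and 70.1 in control replicates 1 to 4. At 4000 mg/L it was 26.5, 27.3, 42.6 and 17.6. Each library at 4000 mg/L lay below each control library. The share of all genes tested without such overlap is not given here, for ftn-1 or for the genes named below. The group means were 74.7 ± 9.84 in the control and 28.5 ± 10.4 at 4000 mg/L (SD, n = 4). The log2 difference of (value + 1) was -1.42 ± 0.34 (SE, 95% interval -2.09 to -0.74, limma adjusted p = 0.00168). Among the 1414 genes called lower at this concentration (13.7% of those tested), 40 fell further than ftn-1, and the median fall was -0.56 on the same scale. With voom on the recovered reads and no term for the replicate number, the adjusted p for ftn-1 was 0.102.

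Below 4000 mg/L the ftn-1 signal moved from well to well more than from concentration to concentration. In the 4 libraries of the lowest concentration, 12.5 µg/L, it was 119, 68.8, 71.8 and 109.7 in replicates 1 to 4. Values at 62.5 µg/L were 76.5, 68.1, 50.1 and 62.4. At 313 µg/L the libraries held 71.0, 55.8, 58.7 and 113.7. All 3 groups overlapped the control, although 2 of the 4 libraries at 12.5 µg/L and 1 at 313 µg/L lay above every control library.

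The groups from 1.56 to 31.3 mg/L also overlapped the control range of 65.8 to 88.5. At 1.56 mg/L the signal of ftn-1 was 69.5, 54.6, 77.6 and 34.9. At 7.81 mg/L it was 72.4, 61.1, 98.1 and 85.3. At 15.6 mg/L it was 41.7, 75.6, 69.2 and 67.6. Libraries below the control range were present in each of these groups, beside libraries within it. At 31.3 mg/L the signal was 59.7, 86.3, 63.6 and 83.5, with 2 libraries below all controls.

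The groups from 62.5 to 500 mg/L overlapped the control as well. The signal of ftn-1 was 44.5, 71.6, 58.7 and 54.4 at 62.5 mg/L. It was 38.9, 76.9, 39.2 and 65.4 at 125 mg/L. At 250 mg/L it was 253.9, 73.1, 38.3 and 57.9, so that 1 library gave the highest value of all 60 and another was among the lowest below 4000 mg/L. At 500 mg/L it was 51.7, 76.9, 30.3 and 69.5, and 30.3 was the lowest of the 56 libraries below 4000 mg/L.

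The 2 concentrations just under the highest showed no shift of all wells together. The ftn-1 signal was 44.3, 104.6, 41.6 and 65.3 at 1000 mg/L. At 2000 mg/L it was 47.8, 80.5, 46.6 and 92.8. In both groups, 1 library lay above every control library, and 3 libraries at 1000 mg/L and 2 at 2000 mg/L lay below.

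**Figure D1:**
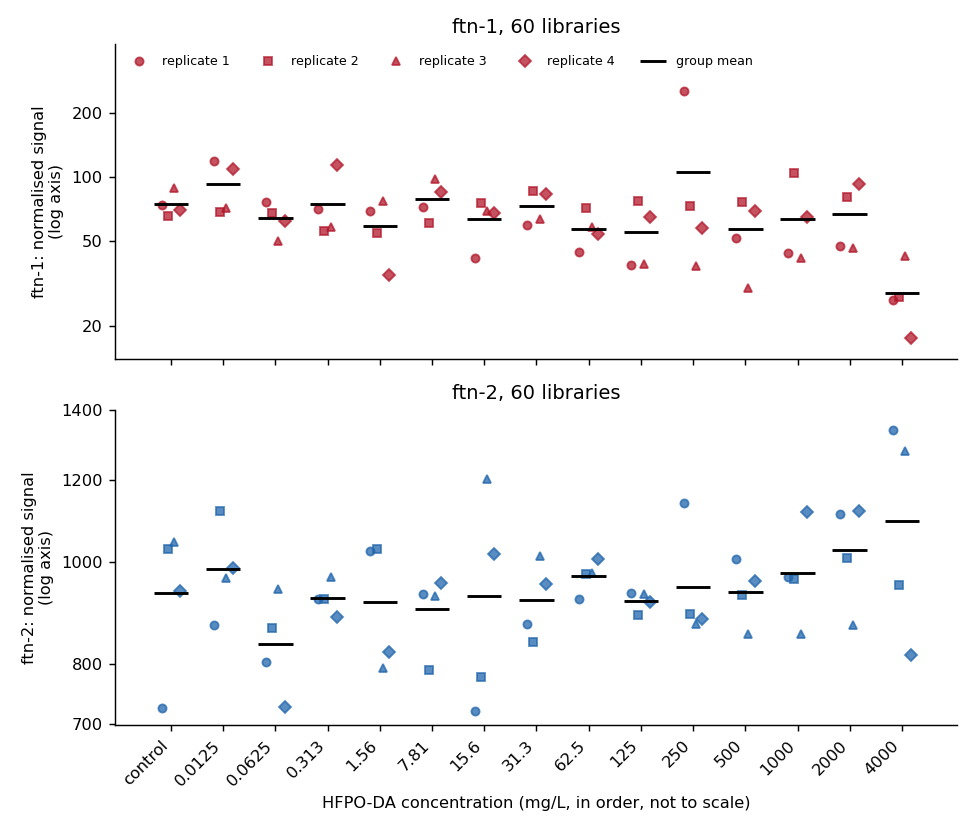
Normalised signal of ftn-1 (upper panel) and ftn-2 (lower panel) in each of the 60 libraries, on log axes, against HFPO-DA concentration in mg/L in order; the ticks of the 3 lowest groups are the µg/L concentrations written in mg/L, symbols mark the replicate number and black lines the group means. The 4 ftn-1 values at 4000 mg/L sit between 17.6 and 42.6, below the 4 control values, while ftn-2 values at 4000 mg/L, 815 to 1338, overlap the control.

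Ordered by group mean, ftn-1 ran from 105.8 ± 99.7 at 250 mg/L, which rests on the library at 253.9, through 92.4 ± 25.8 at 12.5 µg/L and the control in the fifth place, down to 55.1 ± 19.1 at 125 mg/L and 28.5 ± 10.4 at 4000 mg/L. The libraries of neighbouring groups overlapped in all 14 neighbour pairs of this order. Sorting by the mean places like groups side by side, so overlap and small gaps were largely fixed by the order. In 13 of the 14 pairs the gap between means was smaller than the larger of the SDs. The exception was the last step, from 125 to 4000 mg/L, where means were 26.6 apart and the larger SD was 19.1. Of the 56 libraries below 4000 mg/L, 7 had less ftn-1 signal than the highest library at 4000 mg/L.

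At the 13 lower concentrations the limma contrasts called neither ferritin gene. The log2 differences of ftn-1 from the control lay between -0.49 and 0.27 (SE 0.34 each), and 10 of the 13 were below 0. In the fits of all 60 libraries, neither gene had an unadjusted p under 0.05 in these contrasts, with limma on the deposited values or voom on recovered reads. The lowest unadjusted p for ftn-1 in that limma fit was 0.155, at 125 mg/L, where the 95% interval was -1.16 to 0.19. With only the 8 libraries compared in limma, 2 of the 13 ftn-1 contrasts had an unadjusted p under 0.05, the lowest 0.0346. The background at these concentrations was low as well. Of the genes tested, 0.0% were called from 12.5 µg/L to 125 mg/L, 0.00972% at 250, 0.0194% at 500, 0.165% at 1000 and 0.486% at 2000 mg/L.

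**Figure D2:**
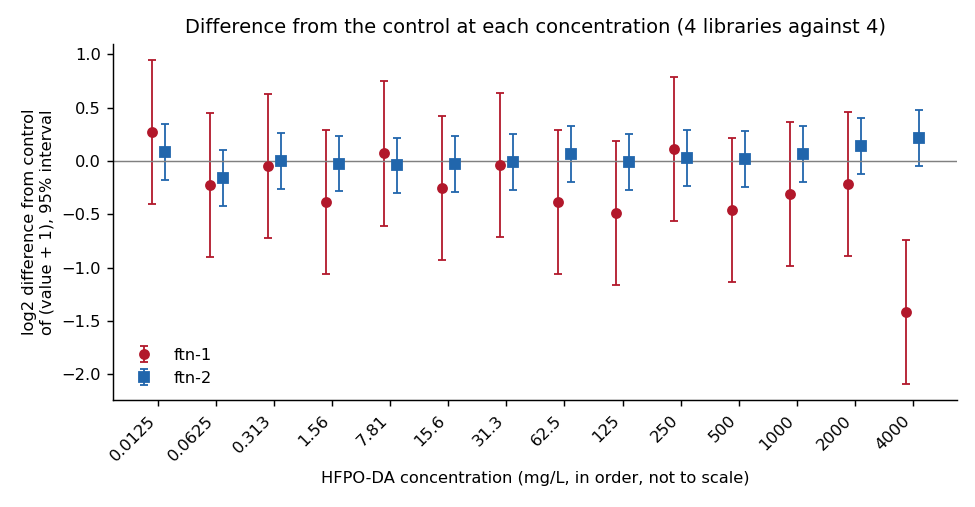
Log2 difference of (value + 1) from the control for ftn-1 (circles) and ftn-2 (squares) at each HFPO-DA concentration, with 95% intervals from the limma fit, 4 libraries against 4. The interval of ftn-1 lies below 0 at 4000 mg/L only, at -2.09 to -0.74; all 14 intervals of ftn-2 include 0.

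The step between the 2 highest concentrations was tested directly, as the difference of these 2 groups. Its SE came from the fit of all 60 libraries, the control among them. From 2000 to 4000 mg/L, ftn-1 went from 66.9 ± 23.3 to 28.5 ± 10.4, a log2 difference of -1.203 ± 0.337 (SE, 95% interval -1.88 to -0.53, limma adjusted p = 0.0189). In this contrast 8.65% of the genes tested were called, 4.59% higher and 4.06% lower. The highest library at 4000 mg/L, 42.6, was below the lowest at 2000 mg/L, 46.6. Single libraries decided this call. The adjusted p for ftn-1 was 0.0533 when replicate 2 of the 2000 mg/L group was left out, 0.0599 for its replicate 4 and 0.133 for replicate 4 of the 4000 mg/L group. With only the 8 libraries of the 2 groups in the limma fit, the adjusted p was 0.0655.

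Over the rank of the concentration, from 0 for the control to 14, the slope of ftn-1 was -0.0523 ± 0.0155 log2 units per rank (SE, limma adjusted p = 0.0312), in a model where 6.57% of genes were called, 3.80% higher and 2.77% lower. Without the 4000 mg/L group it was -0.026 ± 0.0154 with an adjusted p of 0.956. Leaving out replicates 1, 2, 3 or 4 at 4000 mg/L gave adjusted p of 0.0764, 0.0854, 0.0545 and 0.116. Within each replicate number the sample numbers follow falling concentration, in replicate 1 from 1 at 4000 mg/L to 15 in the control. For either ferritin gene, a slope over the rank therefore cannot be told apart from an effect of sample order. The same holds for the difference between 4000 mg/L and the control, which stand first and last in each replicate number.

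The reads behind these values were few. The 4 control libraries held 35, 101, 107 and 49 reads of ftn-1, and the libraries at 4000 mg/L 8, 17, 28 and 14. Pooled over a group these are 292 and 67 reads. Relative to the size factors, the pooled level at 4000 mg/L was 0.343 times that of the control (exact binomial 95% interval 0.259 to 0.449, counting error only).

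The level of ftn-1 also differed between the replicate numbers, and the deposited values had been adjusted for it. Each deposited value carries a factor shared by the 15 libraries of a replicate number, which for ftn-1 was 1.86 in replicate 1, 0.747 in replicate 2, 0.782 in replicate 3 and 0.919 in replicate 4. Before that factor, the median over the 14 groups below 4000 mg/L was 33.1 reads over size factor in replicate 1, against 94.5, 72.8 and 72.4 in replicates 2 to 4. For ftn-2 the factors were 1.08, 1.00, 0.981 and 0.940. Before the adjustment, ftn-1 was lower at 4000 mg/L than in the control in each replicate number. Reads over size factor went from 38.3 to 12.7 in replicate 1 and from 85.8 to 34.3 in replicate 2. They went from 110.9 to 52.2 in replicate 3 and from 74.2 to 17.0 in replicate 4. In replicate 3 the level was already as low at lower concentrations. It was 47.9, 46.8, 36.5, 51.0 and 57.3 at 125, 250, 500, 1000 and 2000 mg/L. Sample numbers run from 1 to 60, and in 3 sets of 12 consecutive numbers a control and a 4000 mg/L library stand together. There the reads over size factor went from 38.3 to 34.3, from 85.8 to 52.2 and from 110.9 to 17.0. Each of these pairs joins different replicate numbers: control replicates 1, 2 and 3 with replicates 2, 3 and 4 at 4000 mg/L. The difference between replicate numbers is therefore part of these changes. In replicate 3, the libraries from 125 to 4000 mg/L share 1 set, and the control stands in another. The labels do not call these sets a batch.

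**Figure D3:**
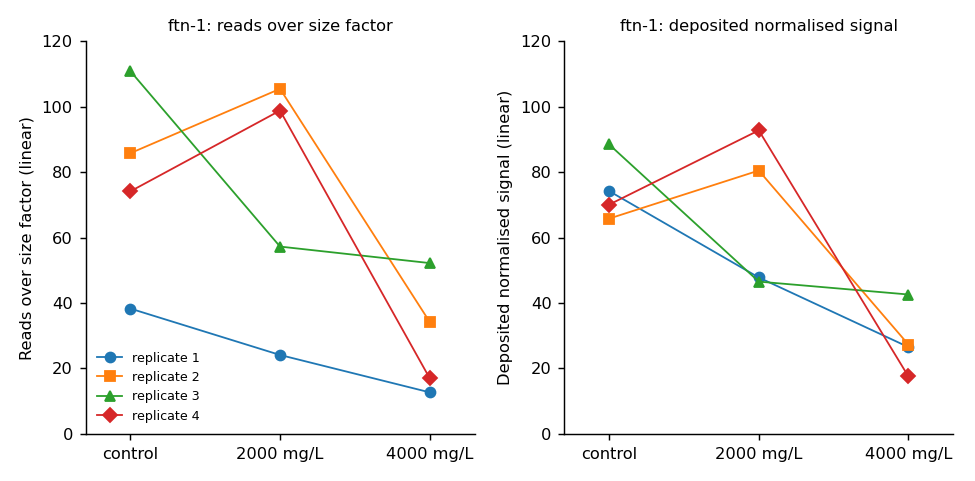
ftn-1 in the control, at 2000 mg/L and at 4000 mg/L, as reads over size factor (left) and as the deposited normalised signal (right), on linear axes; each line joins libraries that carry the same replicate number. Replicate 1 is lowest before the adjustment, from 38.3 in the control to 12.7 at 4000 mg/L, and all 4 lines end below their control value in both panels.

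The broadly expressed ferritin gene ftn-2 was higher in mean at 4000 mg/L than in the control, by less than its spread. Its normalised signal was 724.7, 1030.1, 1045 and 938 in control replicates 1 to 4. At 4000 mg/L it was 1338, 952, 1277 and 815. Of these, 2 libraries exceeded every control library and the other 2 fell within the control range. The log2 difference was 0.21 ± 0.13 (SE, 95% interval -0.05 to 0.48, limma adjusted p = 0.215). This interval rests on the spread of all 60 libraries. With only the 8 libraries compared the SE was 0.17 (limma adjusted p = 0.392), so changes beyond that interval were not excluded.

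At the lower concentrations the log2 differences of ftn-2 lay between -0.16 and 0.15, each with an SE of 0.13. The group means ran from 834 ± 91.5 at 62.5 µg/L to 1028 ± 116 at 2000 mg/L. At 2000 mg/L the libraries held 1112, 1009.9, 871 and 1120.1. At 1000 mg/L they held 968, 963, 854 and 1118. The 4 libraries at 125 mg/L were the closest together, at 935, 891, 932 and 917. Those at 15.6 mg/L were among the widest, at 720.1, 777, 1201 and 1018.

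Among the lowest concentrations, ftn-2 had 871, 1119.8, 966 and 987 at 12.5 µg/L and 803, 866, 942 and 727 at 62.5 µg/L. At 313 µg/L it had 922, 922, 968 and 887, and at 1.56 mg/L 1025, 1029.8, 793 and 821. Each of these groups lay within the control range of 724.7 to 1045 except for 1 library at 12.5 µg/L. At 7.81 mg/L the signal was 932, 789, 928 and 956, at 31.3 mg/L 873, 839, 1014 and 954, and at 62.5 mg/L 923, 974, 977 and 1008. At 250 mg/L it was 1139.99, 893, 872 and 882, and at 500 mg/L 1007, 930.3, 853 and 959.5. In these 5 groups, replicate 1 at 250 mg/L was the only library above all controls and 0 lay below them.

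All 14 neighbour pairs in the order of the ftn-2 means overlapped and had gaps smaller than the larger SD, which sorting by the mean largely fixes. The 2 highest means belonged to the 2 highest concentrations. From 2000 to 4000 mg/L the log2 difference was 0.07 ± 0.13 (SE, adjusted p = 0.771). The slope over the concentration rank was 0.0120 ± 0.0053 log2 units per rank (SE, unadjusted p = 0.0280, adjusted p = 0.133). On reads over size factor, with the set of 12 consecutive sample numbers as a term, the slope was 0.0165 and its limma adjusted p 0.0375. The same reads with no term gave 0.012 and an adjusted p of 0.194.

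Within a library, ftn-1 fell relative to ftn-2. The mean log2 ratio of ftn-1 to ftn-2, on values plus 1, was -3.62 ± 0.29 in the control and -5.25 ± 0.34 at 4000 mg/L (SD, n = 4). The ratio ranged from -3.95 to -3.27 in the control and from -5.60 to -4.87 at 4000 mg/L, without overlap. The difference was -1.63 (exact permutation test over libraries, two-sided, p = 0.0286, the smallest p that 4 against 4 allows).

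Per length of exon, ftn-2 was the more abundant ferritin messenger in every library. In reads over size factor per kilobase, ftn-1 had 128 ± 49.8 and ftn-2 had 1441 ± 279 in the control (SD, n = 4). The ratio of ftn-2 to ftn-1 on this scale was 16.3, 11.1, 8.93 and 12.5 in control replicates 1 to 4. The same ratio at 4000 mg/L was 90.5, 25.7, 23.2 and 47.3. The median ratio was 11.8 in the control and 36.5 at 4000 mg/L, and medians of the 13 groups between lay between 9.80 and 18.0. These ratios use reads before the replicate-number factor, and replicate 1 had the highest ratio in every group but 250 mg/L.

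The ferritin genes differed in how steady they were from well to well. The residual SD of log2(value + 1) around the group means was 0.51 for ftn-1, or 0.43 without replicate 1 at 250 mg/L. Among 2309 genes with a mean within 1.5-fold of that of ftn-1 (67.7), the median residual SD was 0.25, and 95.9% had a smaller one than ftn-1. For ftn-2 the residual SD was 0.19, and 51.1% of 137 genes of like level were below it. Single libraries held 8 to 185 reads of ftn-1 and 333 to 2608 of ftn-2.

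Other genes of iron handling, and known targets of HIF-1 and DAF-16, were taken from 6 lists. Of 41 genes listed, 32 were measured, and at 4000 mg/L limma called 3 higher and 4 lower, a share near the background of 28.5%. The median log2 difference of the 32 was -0.08, against -0.05 over all genes tested.

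Among metal transporters, 4 of 6 listed were measured and 0 were called at 4000 mg/L by limma or voom, also at an unadjusted p under 0.05. These included smf-1, a divalent metal transporter of the same NRAMP family as smf-3, at 6.62 ± 1.497 in the control and 6.13 ± 1.104 at 4000 mg/L. The best expressed, slc-25A37 (mfn-1, the homologue of mitoferrin, which brings iron into mitochondria), had 56.9 ± 5.15 and 60.5 ± 2.66, a log2 difference of 0.09 ± 0.14 (SE). The ferroportin homologue fpn-1.1, of the family of cellular iron exporters, had 31.8 ± 7.06 and 24.1 ± 8.01, with -0.42 ± 0.25 (SE, adjusted p = 0.211).

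Of 8 listed regulators, 7 were measured and 0 were called by limma or voom, also at an unadjusted p under 0.05. The best expressed was aco-1, cytosolic aconitase and the worm homologue of iron regulatory protein, with 209 ± 34.9 in the control and 193 ± 36.5 at 4000 mg/L (log2 difference -0.12 ± 0.16, SE). The messengers of the factors known to act on ftn-1 had log2 differences of 0.31 ± 0.18 for hif-1, 0.38 ± 0.33 for the GATA factor elt-2 and 0.13 ± 0.21 for daf-16. These are levels of messenger RNA, and activity of the factors was not measured.

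Heme, the iron porphyrin that C. elegans cannot make and must take from food, gave the largest rises among these lists. Of 8 listed heme genes 5 were measured and 2 rose at 4000 mg/L, with a list median of 0.50 and all 5 differences above 0. Over all genes tested, 14.7% were called higher. At an unadjusted p under 0.05, limma and voom each had 3 of the 5 genes. The secreted protease gene hrg-7, which signals heme status between intestine and neurons, had a normalised signal of 46.3, 110.3, 81.1 and 110.6 in the control. The exposed libraries at 4000 mg/L had 325, 452, 310.3 and 383. Every library at 4000 mg/L lay above every control library, and the log2 difference was 2.13 ± 0.24 (SE, limma adjusted p = 1.23e-09). At 2000 mg/L hrg-7 was at 134 ± 12.25, with 0.70 ± 0.24 (SE, adjusted p = 0.353).

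The second was hrg-4, the heme importer of the intestine. It had 11.2, 18.3, 13.1 and 9.91 in the control and 29.0, 27.8, 21.8 and 45.0 at 4000 mg/L, again without overlap. Its log2 difference was 1.16 ± 0.28 (SE, adjusted p = 0.00180). The heme transporter hrg-1 and the exporter mrp-5 had 0.50 ± 0.33 and 0.45 ± 0.22 (SE) and were not called. Both hrg-4 and hrg-7 stayed called in all 21 alternative fits at this concentration.

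All 5 listed genes of iron-sulfur cluster assembly, a mitochondrial user of iron, were measured, and their log2 differences lay between -0.43 and -0.08. Only the mitochondrial glutaredoxin gene glrx-5 was called, with 125 ± 17.0 in the control, 94.8 ± 9.88 at 4000 mg/L and a log2 difference of -0.39 ± 0.14 (SE, adjusted p = 0.0350). At an unadjusted p under 0.05, limma had 4 of the 5 genes and voom 3. The other differences were -0.43 ± 0.20 for frataxin (frh-1), -0.31 ± 0.13 for the scaffold iscu-1, -0.26 ± 0.11 for the cysteine desulfurase nfs-1 and -0.08 ± 0.17 for the transporter abtm-1. The glrx-5 call was not steady: leaving out control replicates 1, 2 and 4 gave adjusted p of 0.0557, 0.124 and 0.0858, and leaving out replicate 4 of the 4000 mg/L group 0.158. With all libraries kept, the glrx-5 call was also lost with median ratio rescaling (0.0621), quantile normalization (0.0955), reads over size factor and no term (0.0644), voom (0.0806) and only the 8 libraries compared (0.0977).

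All 8 listed genes known to be induced by HIF-1 were measured, with an unadjusted p under 0.05 for 2 with limma and 1 with voom. At the adjusted threshold 1 rose at 4000 mg/L, F22B5.4. It had 32.0 ± 9.75 in the control and 56.2 ± 14.2 at 4000 mg/L, with 0.81 ± 0.29 on the log2 scale (SE, adjusted p = 0.0312). Adjusted p for F22B5.4 was 0.0815, 0.0673 and 0.104 without replicates 1, 2 and 4 at 4000 mg/L and 0.185 without control replicate 4, and 0.240 with voom. It was 0.155 with reads over size factor and no term, 0.0702 with voom and the replicate block and 0.0706 with only the 8 libraries compared. The other 7 had differences of -0.58 to 0.20, with a list median of 0.06. Among them were the HIF-1 hydroxylase egl-9, at 0.19 ± 0.21, and the nuclear receptor gene nhr-57, at -0.03 ± 0.33 (SE).

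Of 7 listed DAF-16 targets 4 were measured and 3 fell at 4000 mg/L, with a list median of -0.82. Over all genes tested, 13.7% were called lower. At an unadjusted p under 0.05, limma had 3 of the 4 genes and voom 2. The furthest was dod-3, named for lying downstream of daf-16. It had 190.5, 148, 136 and 134 in the control and 24.3, 73.3, 27.1 and 26.5 at 4000 mg/L, without overlap, a log2 difference of -2.13 ± 0.39 (SE, adjusted p = 5.54e-05). The metallothionein gene mtl-1 had 12.0 ± 7.69 and 4.53 ± 1.34, on 39 and 6 reads in all, with -1.08 ± 0.38 (SE, adjusted p = 0.0269). The lysozyme gene lys-7 had 260 ± 88.5 and 171 ± 56.0, with -0.56 ± 0.21 (SE, adjusted p = 0.0410).

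The mtl-1 and lys-7 calls were not steady. For mtl-1 the adjusted p was 0.180 and 0.0793 without control replicates 2 and 4 and 0.0508 and 0.0900 without replicates 3 and 4 at 4000 mg/L. For lys-7, leaving out control replicates 2, 3 and 4 gave 0.185, 0.118 and 0.126, and leaving out replicates 1, 2 and 4 of the 4000 mg/L group 0.129, 0.0687 and 0.158. Other settings with all libraries kept gave mtl-1 an adjusted p of 0.0508 (pseudocount of 5), 0.210 (voom), 0.0697 (voom with the replicate block) and 0.0856 (only the 8 libraries compared). For lys-7 it was 0.0528 with median ratio rescaling, 0.109 with reads over size factor and no term, 0.143 with voom and 0.172 with only the 8 libraries compared. The fall of dod-3 was called in all 21 alternative fits. Over the 6 lists, 4 genes were called lower with all libraries, 2 when control replicate 2 was left out, 1 when control replicate 4 was, and 1 when replicate 4 of the 4000 mg/L group was.

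**Figure D4:**
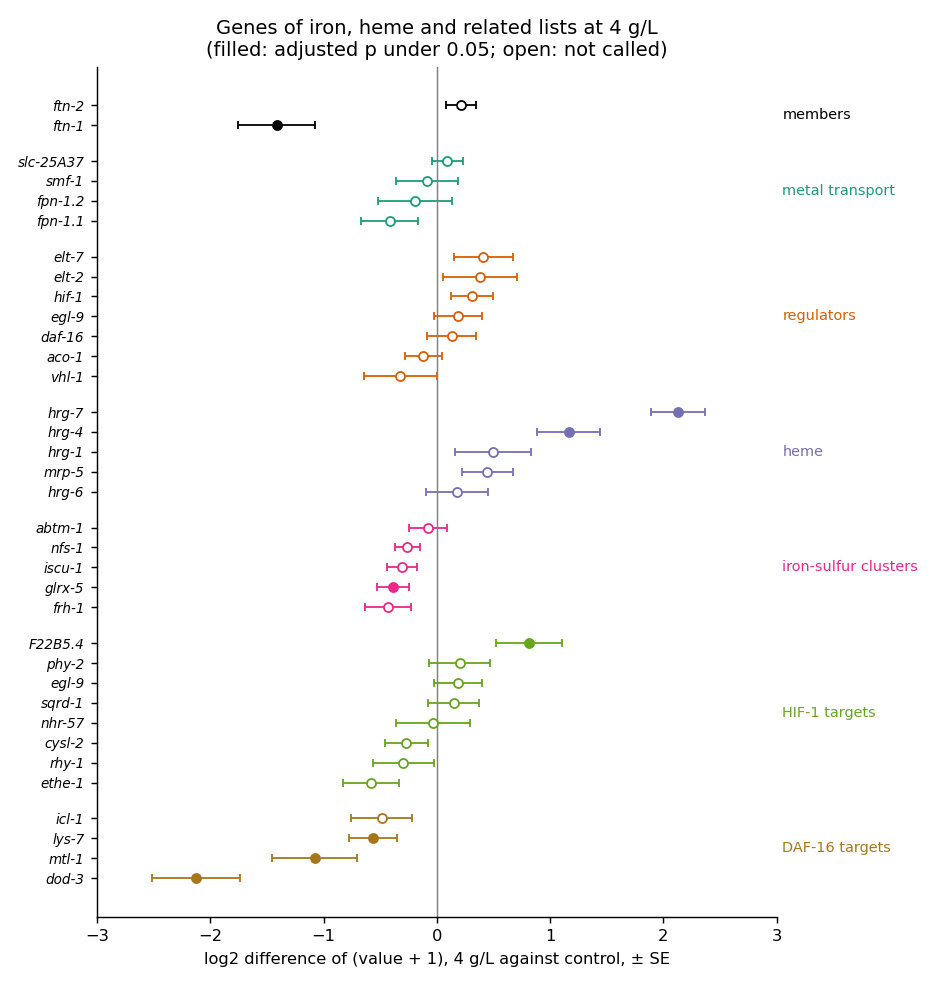
Log2 difference of (value + 1) between 4000 mg/L and the control, ± SE, for the 2 ferritin genes and the measured genes of 6 lists, grouped and coloured by list; filled circles passed the adjusted p threshold of 0.05 and open circles did not (egl-9 is on 2 lists). ftn-1 at -1.42 and dod-3 at -2.13 lie furthest left and hrg-7 at 2.13 furthest right.

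Markers of tissues also moved at 4000 mg/L, where 14.7% of all genes tested were called higher and 13.7% lower. In RNA from whole worms, fewer cells of a type and less RNA per cell cannot be told apart. Of 10 intestine markers, the tissue where ftn-1 is mainly expressed, 7 rose and 0 fell, and the summed signal of the 10 was 1512 to 2016 in the control and 2842 to 4426 at 4000 mg/L. The brush border actin act-5 rose by 1.05 ± 0.20 and the intermediate filament gene ifb-2 by 1.68 ± 0.23 on the log2 scale (SE), while the gut esterase ges-1 had -0.05 ± 0.23. All 10 had reads in both groups. Of 5 measured germ line markers 2 fell, and their sum was 1871 to 2336 in the control and 1537 to 1825 at 4000 mg/L. Of 7 muscle markers 3 rose, with sums of 2593 to 3740 and 3639 to 5344. Of 5 measured epidermis markers 3 rose, with sums of 6081 to 7649 and 6226 to 8147, and of 6 neuron markers 1 rose, with sums of 248 to 319 and 295 to 372. The part of these shifts in the values of ftn-1 and ftn-2 was not tested.

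The genes whose pattern was most like that of each ferritin gene were looked up by Pearson r over the 15 group means, among 6696 genes with a mean value of at least 20. The group means all rest on the same 60 libraries, which differ in depth, and the 4000 mg/L group is the extreme for ftn-1. For ftn-1 the highest were Y40H7A.10 (r = 0.93), dod-3 (r = 0.91) and the globin gene glb-1 (r = 0.90). Over the 60 single libraries r was 0.47, 0.81 and 0.71. Over the 56 libraries below 4000 mg/L, leaving out replicate 1 at 250 mg/L, r was 0.06 for Y40H7A.10, 0.68 for dod-3 and 0.63 for glb-1. Within a replicate number, over its 15 libraries, dod-3 gave r of 0.59 to 0.93 and glb-1 0.65 to 0.85. Of the 3, Y40H7A.10 had the highest r over group means and the lowest among single wells.

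Like ftn-1, glb-1 and Y40H7A.10 were lower at 4000 mg/L. The genes most like a ferritin gene were chosen on group means that include this concentration, so a shared direction there is partly fixed by the choice. The signal of glb-1 was 355, 255, 342 and 209 in the control and 124, 127, 134 and 121 at 4000 mg/L, without overlap. Y40H7A.10 had 151 to 213 in the control and 70.2 to 147 at 4000 mg/L. For ftn-2 the most similar genes were R01B10.3 (r = 0.91), R06C1.4 (r = 0.88) and C18B2.5 (r = 0.85), with 0.47, 0.62 and 0.21 over the 60 libraries. R06C1.4 had 596 ± 103 in the control and 788 ± 90.0 at 4000 mg/L, R01B10.3 89.4 ± 10.8 and 126 ± 27.1, and C18B2.5 81.5 ± 12.94 and 133 ± 27.1 (SD, n = 4).

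**Figure D5:**
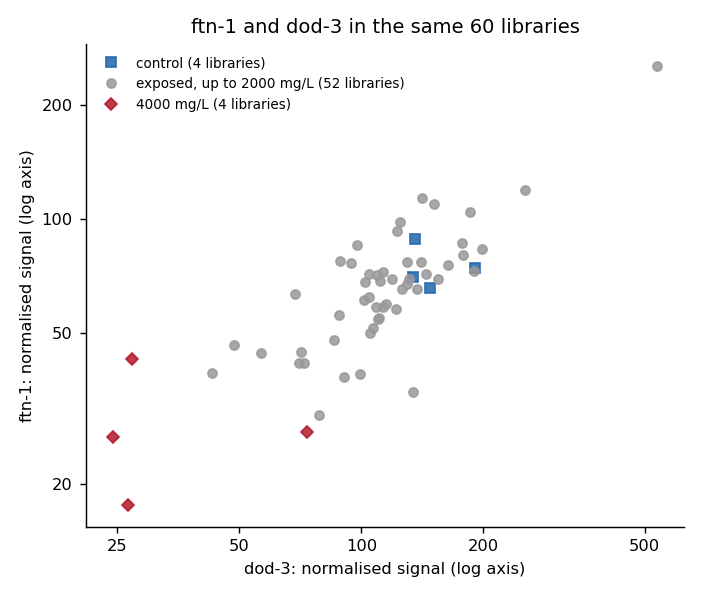
Normalised signal of ftn-1 against that of dod-3 in each of the 60 libraries, on log axes; squares are the 4 control libraries, circles the 52 libraries from 12.5 µg/L to 2000 mg/L and diamonds the 4 libraries at 4000 mg/L. Replicate 1 at 250 mg/L stands at the upper right, with 253.9 for ftn-1 and 537 for dod-3, and the 4000 mg/L libraries stand at the lower left, with ftn-1 between 17.6 and 42.6.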

How the data were processed

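Per the labels, poly(A) RNA of whole worms was sequenced. Per the submitters' processing notes, the tools were edgeR 3.36.0, HTSeq 2.0.1, STAR 2.7.10a, Trimmomatic 0.39 and UMI-tools 1.1.2, and WBcel235 was the genome build; those notes give neither their roles nor their order. The deposited values are a normalised, linear signal for each gene and library. From the values, each equals 1 plus a factor of gene and replicate number, times 1 plus scaled reads, with reads of 0 held as 0.5. Factors lie between 0.445 and 3.18. Whole reads came back for 100% of 617880 values within 0.001 reads, and the recovery was tested on simulated data. Differences between replicate numbers were thus already adjusted for in the deposited values.

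The signal was tested as log2(value + 1), which understates changes of low genes, after a filter on low values (at least 5 in 4 libraries or more), which 10293 genes passed. With R 4.3.3, limma 3.58.1 with an intensity trend fitted 15 group means to all 60 libraries; another model fitted a slope over the concentration rank. p-values are two-sided, adjusted by Benjamini-Hochberg across every gene tested in the contrast (threshold 0.05). Scaled reads (reads over size factor) have no replicate-number factor. The ratio was tested by exact permutation (scipy 1.17.1). Python 3.11.15, numpy 2.4.6, pandas 2.3.3 and matplotlib 3.10.9 made the tables and plots. Symbols matched 10294 identifiers.

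Groups came from the sample titles. The labels do not say that replicate numbers pair wells. Deviations from the group means were correlated in the deposited values, which were already adjusted for the replicate number. They correlated above 0.1 in all 4 same-numbered pairs of the control with 12.5 µg/L (r 0.136 to 0.572) and with 62.5 µg/L (0.1002 to 0.553). With the other 12 concentrations this did not hold in all 4 pairs. These 2 concentrations stand next to the control in sample number, as 14 and 13 beside 15 in replicate 1. The replicate block gave 0 ferritin calls at both. The members, gene lists and tests were chosen with earlier results of these data known. Named beside the members are list genes called at 4000 mg/L, the list gene with the highest mean where none was called, and the 3 genes most like each member. Other list genes given values were chosen after their values were seen. Alternatives covered pseudocounts, filters, scaling, recovered reads, terms and left-out libraries. No transcript or protein sequence was used.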

Additional observations from a re-analysis of the deposited data

Results flagged for a closer look

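In 30 groups of 4 libraries (2 genes at 15 concentrations), 3 held a library whose distance from the nearest other exceeded Dixon's limit at the 95% level; chance alone marks about 1 group in 20. In replicate 1 at 250 mg/L, ftn-1 had 253.9 against 38.3 to 73.1 in the other 3 libraries. The same library had the highest ftn-2 value of its group, 1139.99 against 872 to 893. At 7.81 mg/L, the lowest ftn-2 library, replicate 2, had 789.3 against 928 to 956.

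In replicate 1 at 250 mg/L, 6697 genes with a mean of at least 20 were compared with the other 3 libraries of the group. The SD of the log2 differences over these genes was 0.31. ftn-1 had the largest positive difference, 2.20, and dod-3 the next, 2.06. After them came dhs-24 at 1.76, C10C5.5 at 1.69 and F21D5.3 at 1.66, with the collagen hydroxylase gene phy-2 at 1.33 and the flavin monooxygenase gene fmo-2 at 1.23. The library held 136 reads of ftn-1 and 1681290 in all. Its deposited ftn-1 value contains the replicate 1 factor of 1.86. Before that factor it had 135 reads over size factor, against 46.8 to 95.6 in the other libraries of its group and 12.7 to 62.5 in the other 14 libraries of replicate 1. For dod-3 the reads over size factor were 277 in this library, 118 to 274 in the others of its group, and 11.1 to 130 in the others of replicate 1. Without this library, neither ferritin gene was called at 250 mg/L.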

How the results depend on the processing

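The ftn-1 call at 4000 mg/L kept its direction in all 21 alternative fits and passed the threshold in 20. Without each library in turn the log2 difference was -1.63 to -1.21 (adjusted p 0.0007 to 0.0192). It was lost with voom on recovered reads and no term (-1.60, adjusted p = 0.102), added after seeing the data. Other unplanned fits passed, on reads over size factor with no term (limma adjusted p = 0.0422) and with the replicate block (0.00196). Voom with the replicate block (0.0101) was unplanned as well and passed. From 2000 to 4000 mg/L the ftn-1 call was lost with only the 8 libraries compared (-1.203, adjusted p = 0.0655), with reads over size factor and no term (-1.27, 0.168), with voom (-1.38, 0.243) and with voom and the replicate block (-1.41, 0.0501); leaving out libraries gave -1.41 to -1.002. The ftn-1 slope was lost on reads over size factor with the set term (-0.0362, 0.168) and with no term (-0.0548, 0.131). It was also lost with voom (-0.0376, 0.335), voom with the block (-0.0367, 0.123) and without the 4000 mg/L group (-0.026, 0.956). Leaving out libraries gave slopes of -0.0582 to -0.0430. The ftn-2 slope was called on reads over size factor with the set term (0.0165, limma adjusted p = 0.0375). The ftn-2 difference from 2000 to 4000 mg/L turned to -0.0368 and -0.0147 without replicates 1 and 3 at 4000 mg/L and to -0.0083 without replicate 3 at 2000 mg/L, and was up to 0.201 otherwise. The cause was not tested. The ftn-1 to ftn-2 ratio was -1.76 to -1.51 without each library (exact permutation p = 0.0571, the smallest possible there). Of the pathway genes, 4 were called lower, 2 with median ratio rescaling or reads and no term, 1 with voom or only 8 libraries, and 1 to 5 without single libraries. In every alternative 0 ferritin calls were made below 4000 mg/L, and with only the 8 libraries compared 2 of 13 ftn-1 contrasts had an unadjusted p under 0.05.

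Counts over all genes moved more. At 4000 mg/L, 2932 genes were called, and 1781 with voom, 1131 with only 8 libraries and 1303 to 3345 without single libraries. From 2000 to 4000 mg/L there were 890, and 61 to 1379 in other settings. Over the rank there were 676, and 32 to 1439.

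Deviations of same-numbered control and 4000 mg/L libraries correlated at -0.24 to -0.01 in the deposited values. Those values were already adjusted for the replicate number, so this cannot show whether wells were paired. In reads over size factor, before that adjustment, the correlations were -0.20 to -0.05. With the replicate block, ftn-1 at 4000 mg/L had -1.42 (adjusted p = 0.00198) and no other call of a ferritin gene changed, and the exact sign-flip test of the ratio (-1.63) gave p = 0.125, the smallest 4 pairs allow. Count models on recovered reads (edgeR with and without the block, DESeq2) were planned and not run. Libraries of the 13 lower concentrations held 16 to 185 reads of ftn-1, and differences from the control inside the intervals given were not excluded.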
